A study of Mus musculus with 6 samples.

Results

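The genes described here are the VEGF family of the mouse: 5 ligand genes (Vegfa, Vegfb, Vegfc, Vegfd and Pgf), 3 receptor tyrosine kinase genes (Flt1, Kdr and Flt4) and 2 neuropilin co-receptor genes (Nrp1 and Nrp2). They were taken by symbol from a list of names chosen with earlier results of these data known, so counts of members are a description. All 10 were found among the 55401 genes in the files. The samples are 6 primary cancer cell lines, each grown in culture from a tumour of a C57BL/6 mouse and read by RNA sequencing. By genotype label, 3 lines came from WT hosts (replicates 2, 4 and 6) and 3 from Rag1KO hosts (replicates 1, 3 and 7). Rag1 is needed to assemble antigen receptors, so a mouse without it has no mature T or B cells, and the comparison asks how tumour cells from hosts with and without adaptive immunity differ. The cells of both groups were cultured the same way in DMEM with serum, which means that they were measured outside the host. The labels give neither the tumour type nor the sex of the hosts and do not say that each line came from its own animal, so the p-values below measure only the spread between these lines.

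VEGF ligands are secreted dimers that drive the growth of blood and lymph vessels. Vegfa acts on Flt1 and Kdr, of which Kdr carries most of the signal in blood vessel endothelium, while Flt1 binds tightly, signals weakly and has a soluble form that traps ligand. Vegfb and Pgf bind Flt1, and Vegfc and Vegfd act through Flt4, the receptor of lymphatic endothelium. Neuropilins hold VEGF ligands for these receptors and also bind class 3 semaphorins. In tumours the cancer cells are usually a source of ligand, and Vegfa transcription is a classic target of the hypoxia-inducible factors (HIF).

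Some features of these libraries bear on every result. They held 55409583 to 62998051 reads in genes. Rag1 had 41, 109 and 183 reads in the Rag1KO lines 1, 3 and 7 and 0 reads in the lines labelled WT, which goes against what a deletion of the whole gene would give. WT and Rag1KO are therefore used below only as the labels of the lines. Xist, the RNA of the silenced X chromosome in female cells, was at 59776 and 32733 normalized counts in the WT lines 2 and 4 and at most 15.3 in the other 4 lines, which all had reads of the Y-linked gene Ddx3y at 2156 or more. WT replicate 6 stood apart, being the highest or the lowest of the 6 libraries for 57.6% of the 16137 genes tested. Col1a1, a fibroblast marker, was at 206 normalized counts there against at least 478322 elsewhere. The 9 fibroblast markers did not move together, as that line was lowest for 4 of them and highest for 1, Fap. Col1a2 was still at 151806 normalized counts there. Log2 fold changes of the VEGF family genes are therefore given with and without WT replicate 6. Without it, the lines labelled WT are those with high Xist and the lines labelled Rag1KO those with high Ddx3y. The host label and this sex-linked difference then cannot be told apart for any gene. Lymphocyte markers were near 0 everywhere, with a summed level of 2.32 to 4.83 normalized counts per library.

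The starts of 3 of the genes are shown because the results turn on them: Vegfa, the ligand with the steadiest level, and Flt1 and Kdr, the receptor genes whose levels parted most in WT replicate 6. Each is the stretch from 250 to 4 bases before a RefSeq start (GRCm38.p6, the assembly called mm10), on the gene's own strand. All 10 symbols were matched in the RefSeq promoter table. Vegfa lies at chr17:46032381-46032627 (minus strand), Flt1 at chr5:147726015-147726261 (minus strand) and Kdr at chr5:75978459-75978705 (minus strand). Capitals mark the GC box GGGCGG, the HIF core GCGTG and the TATA box TATAAA, on either strand, so that CCGCCC and CACGC are the first 2 on the other strand.
Vegfa: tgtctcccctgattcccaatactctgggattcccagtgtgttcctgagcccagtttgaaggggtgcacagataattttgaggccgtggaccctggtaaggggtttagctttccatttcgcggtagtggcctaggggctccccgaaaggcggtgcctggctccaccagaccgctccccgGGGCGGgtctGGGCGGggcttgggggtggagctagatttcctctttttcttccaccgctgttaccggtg
Flt1: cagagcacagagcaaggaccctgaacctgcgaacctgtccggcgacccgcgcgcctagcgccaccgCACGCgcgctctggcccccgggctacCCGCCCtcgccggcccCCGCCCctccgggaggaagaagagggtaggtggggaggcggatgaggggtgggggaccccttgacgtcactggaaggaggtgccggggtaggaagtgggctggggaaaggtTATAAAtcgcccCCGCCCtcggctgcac
Kdr: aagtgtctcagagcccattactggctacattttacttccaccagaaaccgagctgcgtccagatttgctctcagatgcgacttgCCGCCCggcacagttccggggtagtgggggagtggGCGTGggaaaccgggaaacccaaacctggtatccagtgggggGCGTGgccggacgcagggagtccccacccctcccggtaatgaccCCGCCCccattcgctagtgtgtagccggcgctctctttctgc
The Vegfa window held 2 GC boxes, the Flt1 window 3 and the Kdr window 2, where 32.3% of 32851 windows of the same length held at least 1. The HIF core GCGTG stood 1 time in Flt1 and 2 times in Kdr (27.9% of windows hold it), and neither it nor the other form ACGTG (16.4% of windows) was in the Vegfa window printed. RefSeq lists a second Vegfa start inside the gene, and its window at chr17:46025167-46025413, not printed here, held ACGTG 1 time, GCGTG 1 time and 1 GC box. Flt1 alone of the 3 had a TATA box, 31 to 26 bases before its start (12.3% of windows), and the AP-1 motif TGANTCA (6.71% of windows) was in none of them. A match describes letters only, and a missing one says nothing about sites elsewhere in the gene.

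Vegfa, Vegfb and the neuropilin genes were abundant in every line, and Kdr and Flt4 were scarce in every line. Flt1 was scarce in most lines and far higher in WT replicate 6. To compare genes, normalized counts (reads divided by the authors' size factor) were divided by the length of each gene's exons in kilobases. The median over the 6 lines was highest for Vegfd, at 2611 normalized counts per kb, followed by Vegfa (1897), Vegfb (1412), Nrp2 (985), Nrp1 (746) and Vegfc (229). Far lower came Kdr (13.5), Pgf (8.29), Flt1 (7.18) and Flt4 (1.57). The ranges over the 6 lines overlapped between all neighbours in this order except Vegfc, at 44.9 or more normalized counts per kb, and Kdr, at 25.1 or less. The order among the upper genes depended on the length used: with the longest transcript in place of all exons, the median of Nrp1 (2003 normalized counts per kb) lay above those of Vegfb (1769) and Nrp2 (1735). Fewer cells with a transcript and less of it per cell cannot be told apart in such bulk samples.

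**Figure D1:**
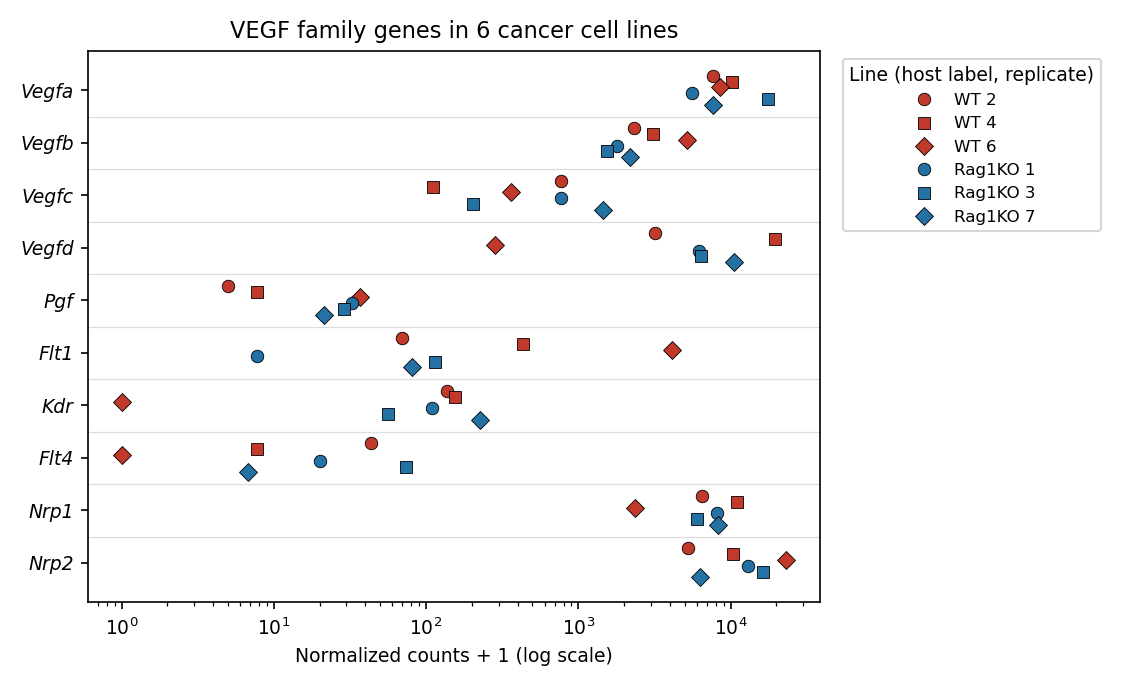
Normalized counts plus 1 (log scale) of the 10 VEGF family genes, 1 point per line, red for hosts labelled WT and blue for hosts labelled Rag1KO, with the marker shape giving the replicate. WT replicate 6 lies far above the other lines for Flt1 (4145) and at 0 for Kdr and Flt4, while Vegfa stays between 5600.3 and 17609.5 in all lines.

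No VEGF family gene was called different between the host labels. All 10 genes passed the filter on low counts, and 0 of them passed limma's threshold (Benjamini-Hochberg adjusted p under 0.05 over all genes tested), where 0.0062% of all tested genes did. Without WT replicate 6 the count was again 0 (0.0298% of all tested genes), as it was by edgeR (0%) and by DESeq2 (0.41%). Adjusted p values of the members ran from 0.850 to 0.997. The groups did not overlap for 1 of the 10, Vegfb, against 12.1% of all tested genes (6.49% with WT above and 5.6% with Rag1KO above). The log2 fold change, taken as WT minus Rag1KO after adding 1 to each normalized count, was positive for 2 of the 10 genes with a median of −0.69, beside 50% positive and a median of 0.00 over all tested genes. Without WT replicate 6 it was positive for 5 of the 10, with a median of 0.02.

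**Figure D2:**
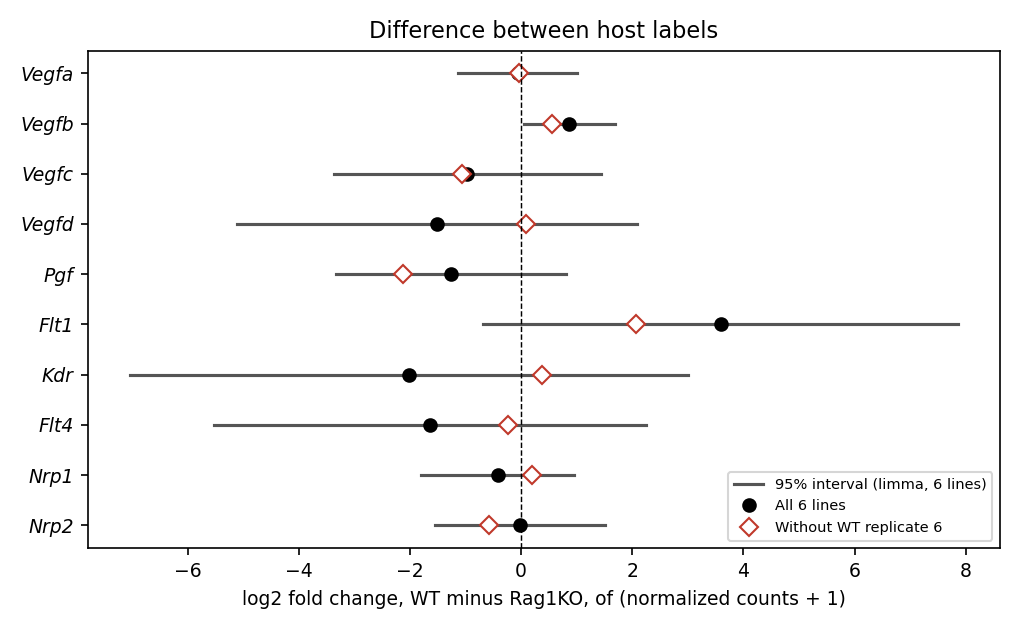
The log2 fold change (WT minus Rag1KO) of each VEGF family gene with its 95% interval from limma over 6 lines (black), and the value without WT replicate 6 (open red diamonds). The interval of Vegfb lies just above 0 before adjustment, and the values of Vegfd, Kdr and Nrp1 change side without that line.

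Vegfa (ENSMUSG00000023951.18, chromosome 17, 46016993 to 46032369, mm10), the main ligand of blood vessel growth, was the steadiest member. It was at 7678, 10226 and 8536 normalized counts in the WT lines 2, 4 and 6 and at 5600.3, 17609.5 and 7720.1 in the Rag1KO lines 1, 3 and 7. The groups overlapped, the 3 lines labelled WT lay between the lowest and the highest line labelled Rag1KO, and the highest line exceeded the lowest 3.14-fold. Between the labels the log2 fold change was −0.06 (95% interval −1.13 to 1.01, limma adjusted p = 0.984), so a difference of about 2-fold either way lies within the interval. WT replicate 6 was not exceptional here, and without it the value was −0.04. Of the genes tested, 43.0% varied more between the 6 lines. The files count reads per gene and do not separate the splice forms of Vegfa, which differ in how they bind matrix.

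Vegfb (ENSMUSG00000024962.13, chromosome 19, 6982473 to 6987651), a ligand of Flt1, was the gene with separated groups. The lines labelled WT had 2332, 3077 and 5158 normalized counts and those labelled Rag1KO had 1804, 1541 and 2200.1. Every line labelled WT thus lay above every line labelled Rag1KO, with WT replicate 6 highest and a small gap between WT replicate 2 and Rag1KO replicate 7. The log2 fold change was 0.87 (95% interval 0.05 to 1.68), or 1.82-fold, with an unadjusted p of 0.0406 and an adjusted p of 0.850 in limma. It was 0.55 without WT replicate 6. An unadjusted p under 0.05 was reached by 1 of the 10 members in limma, Vegfb, against 4.67% of all tested genes, and by 2 in edgeR, Vegfb and Flt1, against 4.44%. Without WT replicate 6 the unadjusted limma p of Vegfb was no longer under 0.05. That of Pgf was, on 4 and 7 reads in the WT lines 2 and 4. Both had an adjusted p of 0.982 in that fit, for which the share of all tested genes under 0.05 was not computed. With all lines the adjusted p of Vegfb was 0.891 by edgeR and 0.652 by DESeq2.

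Vegfd (ENSMUSG00000031380.10, chromosome X, 164373378 to 164402650), a ligand of lymphatic vessel growth, had the widest range among the ligands. It was at 3197, 19633 and 283 normalized counts in the WT lines 2, 4 and 6 and at 6217, 6356 and 10476 in the Rag1KO lines 1, 3 and 7. The lines labelled WT held both extremes, so that the highest exceeded the lowest 69.3-fold, and the lines labelled Rag1KO lay between. WT replicate 6 was 11.3-fold below the next lowest line. This gave a log2 fold change of −1.51 (95% interval −5.11 to 2.09, adjusted p = 0.853) with all lines and 0.09 without WT replicate 6. It was −0.0057 by edgeR. The gene is X-linked, and the lines with high Xist, the WT lines 2 and 4, took the second lowest and the highest place.

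Vegfc (ENSMUSG00000031520.6, chromosome 8, 54077606 to 54187096), the other lymphatic ligand, was at 764, 110.1 and 359 normalized counts in the lines labelled WT. In the lines labelled Rag1KO it was at 764, 204 and 1458. The groups overlapped, with WT replicate 4, the line richest in Vegfd, lowest in Vegfc. Its log2 fold change was −0.97 (95% interval −3.36 to 1.43, adjusted p = 0.854), and −1.07 without WT replicate 6. Leaving out WT replicate 4 instead gave −0.22, and leaving out Rag1KO replicate 3 gave −1.76. Pgf (ENSMUSG00000004791.7, chromosome 12, 85166635 to 85177790), placental growth factor, which binds Flt1, was close to the limit of these data. It had 4, 7 and 41 reads in the WT lines 2, 4 and 6 and 33, 24 and 21 reads in the Rag1KO lines 1, 3 and 7. In normalized counts the WT lines 2 and 4 were lowest at 4.03 and 6.76, and WT replicate 6 was highest at 36.1. The log2 fold change was −1.26 with all lines (adjusted p = 0.850) and −2.12 without WT replicate 6.

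Per kilobase, different ligands led in different lines. Vegfd made up 65.2% of the 5 ligands' summed level in WT replicate 4, 53.5% in Rag1KO replicate 7 and 48.4% in Rag1KO replicate 1. Vegfa led in Rag1KO replicate 3 with 52.7% and in WT replicate 2 with 36.7%. In WT replicate 6 Vegfb led with 58.6%, followed by Vegfa with 36.3%, and Vegfd, with 2.15%, ranked below Vegfc, with 2.67%. The summed level of the ligands ran from 4886 to 12504 normalized counts per kb in lines labelled WT and from 5336 to 8125 in lines labelled Rag1KO. Lines of the same host label thus differed in their leading ligand.

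**Figure D3:**
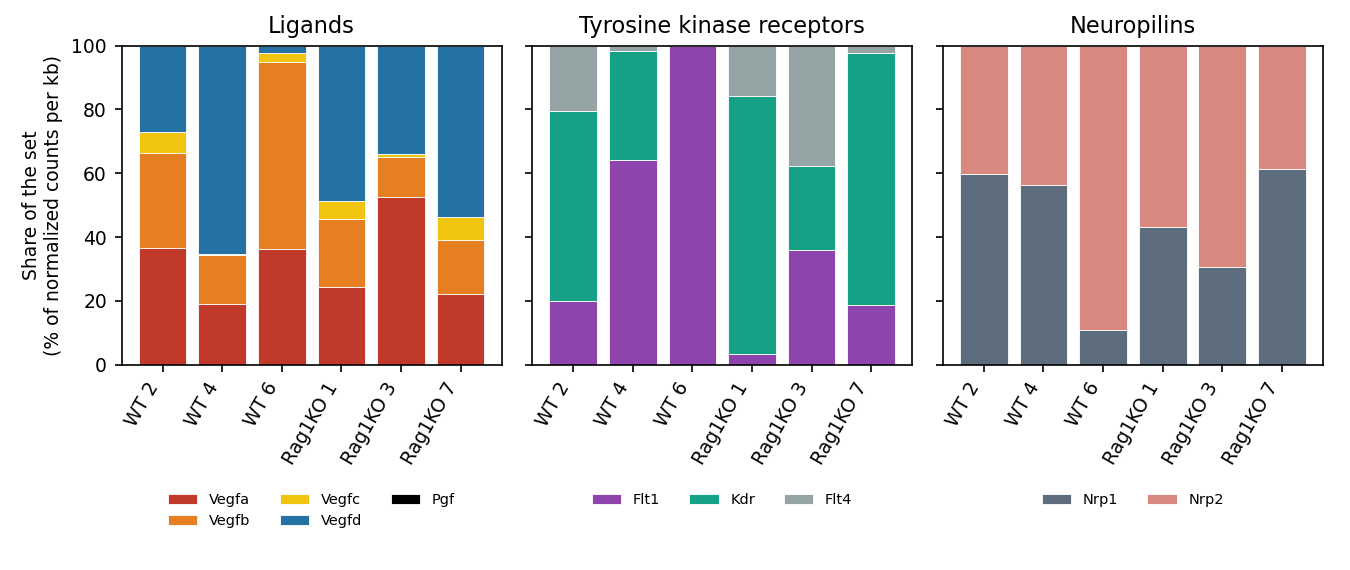
Shares of the summed level per kb held by each ligand, each receptor tyrosine kinase and each neuropilin, 1 stacked bar per line. In WT replicate 6 Vegfb leads the ligands, Flt1 takes all of the receptor signal and Nrp2 takes 89.1% of the neuropilins.

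Flt1 (ENSMUSG00000029648.13, chromosome 5, 147561604 to 147726011), whose start is printed above, had the widest spread of the members at a pseudocount of 1, with an SD over the 6 lines of 3.03 log2 units against 2.92 for Kdr, whose value depends on the pseudocount. It had 68, 449 and 4710 reads in the WT lines 2, 4 and 6, or 68.5, 434 and 4145 normalized counts. The lines labelled Rag1KO had 7, 98 and 83 reads, or 6.71, 114 and 80.4 normalized counts. WT replicate 6 exceeded the next line 9.56-fold and the lowest, Rag1KO replicate 1, 618-fold, and WT replicate 2 lay among the lines labelled Rag1KO, so the groups overlapped. On the log2 scale, WT minus Rag1KO was 3.59 (95% interval −0.69 to 7.87, adjusted p = 0.850 in limma, 0.891 by edgeR and 0.138 by DESeq2) and 2.06 without WT replicate 6. Only 4.29% of the genes tested varied more between the 6 lines. Counts per gene do not tell the soluble form of Flt1 from the full receptor.

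Kdr (ENSMUSG00000062960.10, chromosome 5, 75932827 to 75978458), the principal receptor for Vegfa, went the other way in that line. It was at 136 and 154 normalized counts in the WT lines 2 and 4, at 0 reads in WT replicate 6, and at 108, 55.6 and 227 in the Rag1KO lines 1, 3 and 7. Taking 3 reads, or 2.64 normalized counts in that library, as the limit that 0 reads allow, WT replicate 6 was at least 21.1-fold lower than the next line, counting error only. The other 5 lines lay between 55.6 and 227, and the host labels overlapped among them. The fitted log2 difference was −2.02 (95% interval −7.04 to 3.01, adjusted p = 0.854) with all lines, 0.38 without WT replicate 6 and −0.44 by edgeR.

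Flt4 (ENSMUSG00000020357.3, chromosome 11, 49609263 to 49652739), the receptor for Vegfc and Vegfd, was the scarcest member per kilobase. It had 42, 7 and 0 reads in the WT lines 2, 4 and 6 and 20, 63 and 6 reads in the Rag1KO lines 1, 3 and 7. In normalized counts, Rag1KO replicate 3 was highest at 73.0 and WT replicate 2 next at 42.3, so each label had high and low lines. Its log2 fold change was −1.64 (95% interval −5.52 to 2.24, adjusted p = 0.853), and −0.24 without WT replicate 6. Per kilobase, the receptors summed to 14.8 to 50.03 normalized counts per kb in 5 lines and to 307 in WT replicate 6, where Flt1 alone was counted. Among the other lines Kdr led in WT replicate 2 and the Rag1KO lines 1 and 7, Flt1 in WT replicate 4 with 64.2%, and Flt4 in Rag1KO replicate 3 with 37.8%.

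WT replicate 6 was the highest line for 4 members (Vegfb, Pgf, Flt1 and Nrp2) and the lowest for another 4 (Vegfd, Kdr, Flt4 and Nrp1). Over all tested genes the shares were 27.4% highest and 30.2% lowest, so being an extreme there was common. Large gaps were less so. On the scale of normalized counts plus 1, WT replicate 6 was at least 8 times above every other line for 1 member, Flt1, and for 0.663% of all tested genes. It was at least 8 times below every other line for 2 members, Vegfd and Kdr, and for 5.03% of all tested genes. The filter dropped genes that were high almost only in that line, such as Prkcb and Esm1, both described below. The 0.663% leaves such genes out, so large gaps above the other lines may have been more common than it shows.

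Markers of endothelium, the cell type in which Flt1, Kdr and Flt4 are best known, were at or near 0 for many genes and uneven for the rest. Of 16 such markers 3 (Tie1, Cldn5 and Sox17) had 0 reads in all 6 libraries, 7, these 3 included, had at most 3 reads in every library, and 6 passed the filter on low counts. Pecam1, the adhesion molecule CD31, was at 3.52 to 13.9 normalized counts, a few reads per library. Cdh5, the endothelial cadherin gene, was at 17.1, 40.6 and 16.7 normalized counts in the WT lines and at 9.58, 0 and 0.969 in the Rag1KO lines. Its groups did not overlap (limma adjusted p = 0.850), on few reads. This held for 1 of the 6 tested endothelial markers and for 12.1% of all tested genes. Ecscr, a surface protein gene of endothelium, was at 21.1, 36.7 and 4.40 normalized counts in the WT lines and at 8.62, 1081 and 189 in the Rag1KO lines. Tek, the angiopoietin receptor gene, was highest in Rag1KO replicate 7 at 1243 and in WT replicate 4 at 805. The markers with the most reads thus differed from line to line, and their part in the receptor values was not tested. The summed level of leukocyte and macrophage markers was lowest in WT replicate 6, at 359.9 normalized counts, and highest in Rag1KO replicate 1, at 2111. Most of the latter was 1 gene, Lyz2, at 1493. Ptprc, the general leukocyte marker, was at 3.83 normalized counts or less in every line and Tyrobp at 0. Laptm5 went the other way, highest in WT replicate 6 at 91.5. The summed level of the 16 endothelial markers was 252, 1086 and 1588 normalized counts in the WT lines 2, 4 and 6 and 239, 1434 and 1652 in the Rag1KO lines 1, 3 and 7. In WT replicate 6 nearly all of it was Plvap, a protein of endothelial fenestrae, at 1528 normalized counts against 24.9 or less elsewhere, while Tek was at 7.04 and Egfl7 at 7.92, below every other line. The high Flt1 of that line thus stood beside high Plvap and 0 reads of Kdr, with Cdh5 at 16.7 and Vwf at 14.1 normalized counts. Tie1, Cldn5 and Sox17 do not set that line apart, since they had 0 reads in every line. Of the lymphatic markers, Prox1 was at 2.91 normalized counts or less and Lyve1 at 4.83 or less, beside the low Flt4. Pdpn, which mesenchymal cells also express, was at 4542 to 12240.

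**Figure D4:**
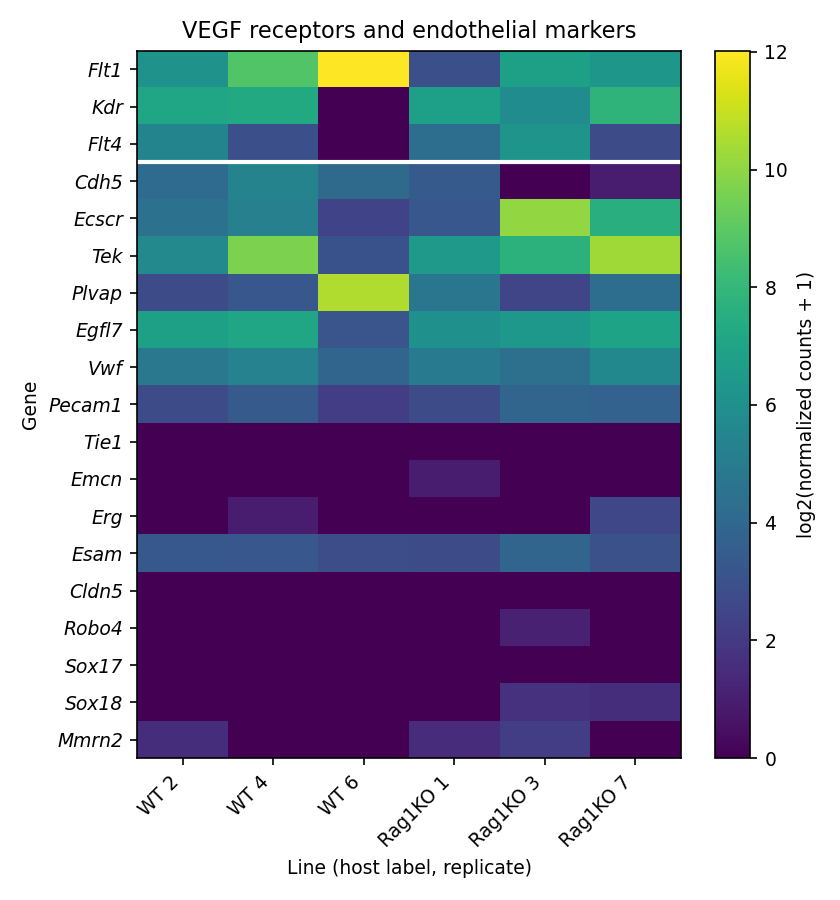
Heat map of log2(normalized counts + 1) of the 3 VEGF receptor tyrosine kinases (above the white line) and 16 endothelial markers in the 6 lines. In WT replicate 6 Flt1 and Plvap are bright while Kdr and Flt4 are at 0. Tie1, Cldn5 and Sox17 are at 0 in every line.

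The neuropilin genes were abundant in all lines and stood in different proportions to each other. Nrp1 (ENSMUSG00000025810.9, chromosome 8, 128358604 to 128503363) was at 6467, 10985 and 2357 normalized counts in the WT lines 2, 4 and 6 and at 8134, 5982 and 8247 in the Rag1KO lines 1, 3 and 7. WT replicate 6 was lowest, 2.54-fold below the next line, and the other 5 overlapped. On the log2 scale, WT minus Rag1KO was −0.42 (95% interval −1.80 to 0.96, adjusted p = 0.883) with all lines and 0.19 without WT replicate 6. Nrp2 (ENSMUSG00000025969.15, chromosome 1, 62703285 to 62818695) was at 5247, 10354 and 23269 normalized counts in the lines labelled WT and at 12979, 16316 and 6281.5 in those labelled Rag1KO. Here WT replicate 6 was highest and WT replicate 2 lowest, so the lines labelled WT enclosed the others. The fitted log2 difference was −0.02 (95% interval −1.56 to 1.51, adjusted p = 0.997), and −0.58 without WT replicate 6. An antisense gene, Gm29083, overlaps Nrp2. The library kit keeps strand, but whether the counting used strand is not given in the sources used here.

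Per kilobase of exon, the ratio of Nrp2 to Nrp1 was 0.670, 0.779 and 8.16 in the WT lines 2, 4 and 6 and 1.32, 2.25 and 0.629 in the Rag1KO lines 1, 3 and 7. WT replicate 6 was thus the line most dominated by Nrp2, which also led in the Rag1KO lines 1 and 3, and the labels overlapped among the other 5. The ratios depend on the length used: with the longest transcript, Nrp1 (2232 normalized counts per kb) lay above Nrp2 (1931) in Rag1KO replicate 1. In every line the neuropilins were more abundant per kilobase than the receptor tyrosine kinases, by 130-fold in Rag1KO replicate 1 and by 7.19-fold in WT replicate 6, the lowest ratio.

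The genes whose profiles over the 6 lines were most like each member were found by the root mean square difference of log2(normalized counts + 1) after centring each gene on its mean, among 11381 tested genes with a mean of at least 100 normalized counts. Vegfb was closest to Fbl (0.11 log2 units, against 0.57 for the spread of Vegfb about its own mean), Plekhf2 and Npm1. Fbl and Npm1 encode the nucleolar proteins fibrillarin and nucleophosmin. Vegfd was closest to Nod1 (0.41 against 1.94), C1s1 and C1s2, the last 2 encoding complement proteases. Nrp1 was closest to Napepld (0.11 against 0.70), Acly, which makes acetyl-CoA for lipid synthesis, and Mmab.

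Flt1 had none closer than Podxl (0.92 against 2.76), Nefm and Adm2, all of them highest in WT replicate 6. Podxl encodes podocalyxin, and it was at 602 normalized counts there against 173 or less elsewhere. Kdr was closest to L1cam (0.38 against 2.66), Ppfibp2 and Tmem121, which all had 0 reads in WT replicate 6. Flt4 was closest to Klhdc8a (0.32 against 2.03), Ntn4 and Rflnb, and Nrp2 to Dpysl3 (0.26 against 0.75), Galns and Rgl1. Vegfa was closest to Pkp2 (0.16 against 0.51), Fuca1 and Tpm1, Vegfc to Wnt10b (0.39 against 1.26), Mlf1 and Gpr85, and Pgf to Cox17 (0.33 against 1.09), Eif4e3 and Slc22a4. With 6 lines, of which 1 stands apart, such likeness describes these libraries only.

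Regulators of Vegfa transcription showed no called difference. Of 10 HIF regulators, 9 were tested and 0 called, 4 had a positive log2 fold change and the median was −0.11, or 0.20 with 7 positive without WT replicate 6. Hif1a, the oxygen-regulated HIF subunit, was at 12752, 18906 and 10575 normalized counts in the lines labelled WT and 8562, 16846 and 7849 in those labelled Rag1KO (log2 fold change 0.39, adjusted p = 0.852; 0.58 without WT replicate 6). Egln3, a prolyl hydroxylase that marks HIF for destruction and is itself a HIF target, was at 271, 711 and 4520.3 against 108, 302 and 101 normalized counts, with WT replicate 6 highest (log2 fold change 2.67, adjusted p = 0.850; 1.55 without that line). Arnt, the constant HIF partner, had a log2 fold change of −0.31 (−0.098 without WT replicate 6) and Hif1an, an asparagine hydroxylase acting on HIF, of −0.27 (−0.56).

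WT replicate 6 was lowest for 12 of the 20 listed HIF target genes other than Vegfa and highest for 3. Over all tested genes it was lowest for 30.2% and highest for 27.4%. All 20 targets were tested and 0 called, with 9 positive and a median of −0.16, and 13 positive and a median of 0.13 without that line. The glucose transporter gene Slc2a3 was at 111, 51.2 and 11.4 normalized counts in the lines labelled WT and 175, 195 and 176 in those labelled Rag1KO, without overlap (log2 fold change −2.13, adjusted p = 0.850; −1.26 without WT replicate 6). Ankrd37, named after its values were seen, was the 1 target with every WT line above, at 101, 235 and 119 against 90.1, 67.2 and 91.1 normalized counts (log2 fold change 0.78, adjusted p = 0.850). Groups without overlap made up 12.1% of all tested genes. Pfkfb4, which sets the level of a glycolytic activator, had a log2 fold change of −1.85 (−1.09 without WT replicate 6) and the collagen prolyl hydroxylase gene P4ha2 one of −1.66 (−0.92). Ero1l, the oxidase of the endoplasmic reticulum listed as Ero1a, was at 47163 normalized counts in WT replicate 6 and at 4163 to 11913 elsewhere (log2 fold change 1.43, and 0.59 without that line). The list was compiled with earlier results of these libraries known, so its counts are a description.

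Genes that mature VEGF ligands were spread in both directions. Of 13 listed, 11 were tested and 0 called, 6 of them positive with a median of 0.25, or 5 positive with a median of 0.00 without WT replicate 6. Pcsk5, a proprotein convertase that can cleave Vegfc and Vegfd precursors, was at 311, 0 and 0 normalized counts in the WT lines 2, 4 and 6 and at 487, 677 and 155 in the Rag1KO lines 1, 3 and 7 (log2 fold change −5.78, adjusted p = 0.850; −4.40 without WT replicate 6), a fitted value that depends on the pseudocount. The related convertase gene Pcsk7 was at 1621 to 2161 normalized counts in the lines labelled WT and 2292 to 2395 in those labelled Rag1KO. Ctsd, encoding the protease cathepsin D, had a log2 fold change of 0.56 (0.38 without WT replicate 6), and Mmp3, a matrix protease gene, one of 1.80 (0.79). The convertase gene Furin was at 6332 normalized counts or more in every line and Ccbe1, which helps to activate Vegfc, at 340.04 or more. Adamts3, the protease that works with Ccbe1, had at most 5.75 normalized counts, and its relative Adamts14 had 2158 or more. Furin, Ccbe1, Adamts3 and Adamts14 were named after their values were seen.

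Genes of signalling below the receptors gave 0 calls as well. Of 32 listed, 29 were tested, 14 of them positive with a median of −0.05, and 19 positive with a median of 0.08 without WT replicate 6. Plcg2, a phospholipase C gene, was at 1043, 306 and 3572 normalized counts in the lines labelled WT and 184, 495 and 89.1 in those labelled Rag1KO (log2 fold change 2.37, adjusted p = 0.850; 1.49 without WT replicate 6). Rcan1, a calcineurin inhibitor gene that VEGF induces in endothelium, had a log2 fold change of −0.68 (−0.62 without WT replicate 6), the adaptor gene Shb 1.27 (0.86) and the kinase gene Yes1 0.24 (0.24). Plcg1, the phospholipase that docks on Kdr, was at 3786 to 10108 normalized counts with no line near 0. Prkcb, a protein kinase C gene acting below Kdr, was at 29384 normalized counts in WT replicate 6 and had at most 1 read in each other line, and so did not pass the filter. Plcg1 and Prkcb were named after their values were seen.

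**Figure D5:**
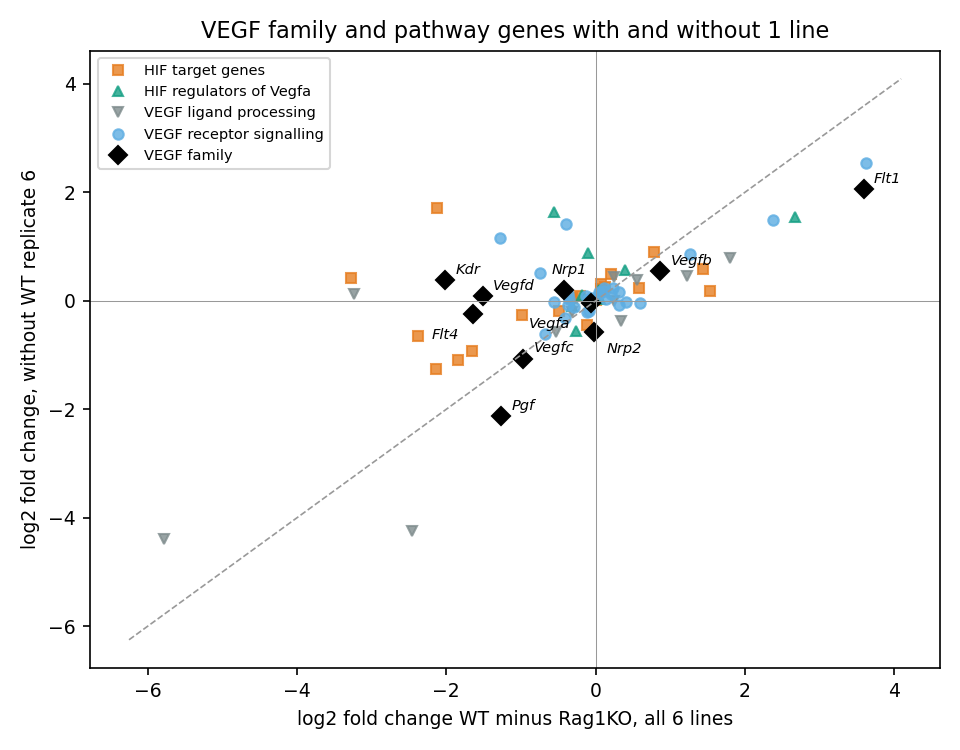
The log2 fold change (WT minus Rag1KO) with all 6 lines (x axis) against the value without WT replicate 6 (y axis), for the 10 VEGF family genes (black, named) and 4 pathway lists. Points off the dashed line of equal values are those that this line moves: Kdr goes from −2.02 to 0.38 and Flt1 from 3.59 to 2.06.

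The class 3 semaphorins and plexins, which share the neuropilins as co-receptors, had 0 of 12 genes called. Of these 4 were positive with a median of −0.25, and 5 with a median of −0.24 without WT replicate 6. Sema3a, the classic ligand of Nrp1, was at 7241, 832 and 30710.1 normalized counts in the lines labelled WT and 2765, 204 and 1093 in those labelled Rag1KO (log2 fold change 2.74, adjusted p = 0.850; 1.53 without WT replicate 6). It was thus highest in the line where Nrp1 was lowest. Sema3c was at 2074, 3739 and 524 against 4043, 2409 and 8254 normalized counts (log2 fold change −1.44, and −0.63 without WT replicate 6), and lowest in the same line as Nrp1. The scarcer Sema3g and Sema3d had log2 fold changes of −2.51 and −2.79 with all lines and of −0.97 and −3.79 without WT replicate 6.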

How the data were processed

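Each deposited file gives a signal value for every gene, which the authors made by dividing whole reads by 1 size factor per library: all values (100%) were whole within 0.01 reads after division by the smallest value. Named without roles, per the submitters' processing notes, are STAR 2.7.9a, Trim Galore 0.6.6, DESeq2, FastQC and mm10, and the counter and annotation are not given in the sources used here. Coordinates and exon lengths came from GENCODE M21 (mm10). Genes kept by filterByExpr on the recovered reads numbered 16137, of 55401. limma 3.58.1 with a mean-variance trend was fitted to log2(value + 1), WT minus Rag1KO, as a two-sided test called at a Benjamini-Hochberg adjusted p under 0.05. Alternatives were edgeR 4.0.16 (quasi-likelihood, TMM) and DESeq2 1.42.0 on the recovered reads, TMM and library-total scaling, no filter, 1 CPM in 3 libraries, a pseudocount of 0.1, each library left out, and another gene length. The fits were tested on simulated counts whose spread between libraries was capped, so that test does not show how they behave at the spread seen here. R 4.3.3 and Python 3.11.15 were used.

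Members and lists were chosen with earlier results of these data known. Named genes are all members, up to 4 of lowest p in each pathway list and the 3 most alike genes of each member; others are marked or serve as markers. Of the lists, Ero1a, Ccn1 and Ccn2 were matched through RefSeq synonyms. Limits on counts of 0 allow 3 reads and cover counting error only, over libraries of 55409583 to 62998051 reads.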

Additional observations from a re-analysis of the deposited data

How the results depend on the processing

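No VEGF family gene passed the threshold under any alternative tried, the lowest adjusted p being 0.138 (Flt1, DESeq2). Over all genes limma called 1, the Y-linked gene Eif2s3y. It had 0 reads in every line labelled WT and 1438 normalized counts or more in those labelled Rag1KO. WT replicate 6 had no reads of it although other Y-linked genes were high there (Ddx3y 4345, Kdm5d 1994 and Uty 1196 normalized counts). That call is thus of a sex-linked gene too, and its cause was not tested. edgeR called 0 (717 at an unadjusted p under 0.05) and DESeq2 65, and with 1 library left out limma called 0 to 5: 5 without WT replicate 6 and 0 without any of the others. Those 5 were Kdm5d, Uty, Ddx3y, Eif2s3y and Xist, all sex-linked, in libraries where the host label and the sex-linked difference cannot be told apart. For the members, 66 of 68 log2 fold changes kept their direction under alternatives that kept all libraries. The exceptions were Nrp2 by edgeR (0.12) and by DESeq2 (0.12), against −0.02. Direction aside, the count models gave other sizes: Vegfd was −0.0057 by edgeR and −0.0046 by DESeq2 against −1.51, Kdr −0.44 by both against −2.02, Flt4 −1.01 by both against −1.64, and Flt1 4.52 by both against 3.59. Pgf and Flt4 did not pass the filter of 1 CPM in 3 libraries. With a library left out, 51 of 60 kept it. The ranges crossing 0 were −0.41 to 0.41 for Vegfa, −2.97 to 0.088 for Vegfd, −3.26 to 0.38 for Kdr, −0.92 to 0.19 for Nrp1 and −0.58 to 0.50 for Nrp2, and the cause was not tested. Others kept their sign over wide ranges: −1.76 to −0.22 for Vegfc, −2.12 to −0.68 for Pgf, 2.06 to 5.01 for Flt1 and −2.96 to −0.24 for Flt4, against 0.55 to 1.12 for Vegfb. Kdr and Flt4, with a library at 0, went to −3.12 and −2.72 with a pseudocount of 0.1. Using the longest transcript raised the mean level per kb of Nrp1 from 718 to 1928 normalized counts and of Nrp2 from 1048 to 1846, since it is shorter than all exons together. No paired analysis was possible because the groups share no replicate numbers. Depth limits Pgf, Flt1, Kdr and Flt4, each with fewer than 10 reads in at least 1 line.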

Other observations

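Other vessel-forming signals also varied between the lines without a called difference. Of 20 other angiogenic ligands and receptors 16 were tested and 0 called, 3 of them with a positive log2 fold change and a median of −1.36. Without WT replicate 6 the median was 0.01 with 8 positive, and that line was the lowest for 9 of the 16, beside 30.2% of all tested genes. Angpt2, the angiopoietin that destabilises vessels, was at 207, 313 and 350.2 normalized counts in the WT lines 2, 4 and 6 and at 57.5, 15.1 and 219 in the Rag1KO lines 1, 3 and 7 (log2 fold change 2.27, limma adjusted p = 0.850; 2.11 without WT replicate 6). Angpt1, its stabilising counterpart, was at 788, 220.1 and 79.2 against 2138, 2009 and 391 normalized counts (log2 fold change −2.30, adjusted p = 0.850; −1.51 without WT replicate 6). The growth factor gene Ptn was at 508 normalized counts in WT replicate 6 and at 65403 or more elsewhere (log2 fold change −3.19, and −0.76 without that line), and Ctgf, a matrix-associated growth factor gene, at 157 there against 2518 or more (log2 fold change −3.77, and −1.80 without it).

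Angiogenesis inhibitors had 0 of 14 tested genes called, with 4 positive and a median of −0.47, or −0.42 without WT replicate 6. Thbs1, encoding thrombospondin 1, was at 777 normalized counts in WT replicate 6 and at 143841 to 1201970 in the other lines (log2 fold change −4.20, adjusted p = 0.850; −1.31 without that line). Serpinf1, encoding the inhibitor PEDF, had a log2 fold change of −0.66 (−0.57 without that line), Dcn, encoding decorin, 1.98 (3.24) and Ism1 −2.14 (−2.07).

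Among genes chosen after their values were seen, WT replicate 6 held Esm1, which endothelial cells make in response to VEGF, at 5880 normalized counts against 46.0 or less in the other lines. Col18a1, whose collagen gives rise to endostatin, was at 259944 normalized counts there against 1476 to 13105.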
